A study of Homo sapiens
Mus musculus with 6 samples.

Results

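The comparison described here sets mouse myoblasts that met the Nodder form of the Notch ligand Jag1 against mouse myoblasts that met wild-type Jag1. It uses 4 of the 6 co-culture wells of the series: C2C12-control cells and C2C12-Notch1 cells, each with HEK-Jag1WT or with HEK-Jag1Ndr as partner. C2C12 is a mouse skeletal muscle precursor line, and the C2C12-Notch1 line expresses introduced Notch1 and was kept under puromycin. The partners are human HEK293-Flp-In kidney cells that carry Jag1WT or Jag1Ndr, both held under hygromycin. Nodder is a missense allele of Jag1. Each well was seeded with C2C12 cells, which settled for 8 h, took 1.6 ug of the empty plasmid pcDNA5 and received HEK cells 18 h later, for 6 h of co-culture. All 6 wells share the plasmid transfection, and the other 2 wells held plain HEK-control cells. The genes described are the 23432 entries of the mouse table without Jag1, of which 11364 had enough reads to be tested.

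Notch signalling passes between touching cells. A ligand such as Jag1 on the sending cell binds a Notch receptor on the receiving cell, proteases release the receptor's intracellular domain, and this domain joins the DNA-binding protein RBPJ to switch on target genes, among them the Hes and Hey repressors. In myoblasts, Notch activity is known to hold back differentiation, in part by opposing Myod1.

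There was 1 well per combination, and the labels name no separate cultures. The test paired the wells by C2C12 line: edgeR's quasi-likelihood test took the read counts of all 6 wells, with C2C12 line and HEK line as additive terms and 2 residual degrees of freedom. A difference is given as log2 of HEK-Jag1Ndr over HEK-Jag1WT, so negative values mean less mRNA beside the Nodder ligand. Levels are counts per 1000000 mouse reads with TMM scaling (CPM). The wells are called control/WT and control/Ndr for C2C12-control cells with HEK-Jag1WT and HEK-Jag1Ndr, and Notch1/WT and Notch1/Ndr for C2C12-Notch1 cells. Unequal responses of the lines enter this test as spread. The p-values measure only how these wells scatter, which may be technical, and bulk RNA cannot tell fewer cells of a type from less RNA per cell.

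The mouse reads of the 4 wells ranged from 2263529 to 7965231, lowest in C2C12-Notch1 with HEK-Jag1WT. Mouse reads were 47.2% and 52.7% of all gene reads in the C2C12-control wells with HEK-Jag1WT and HEK-Jag1Ndr, and 29.6% and 36.5% in the C2C12-Notch1 wells, so their share was higher beside HEK-Jag1Ndr in both lines. The part of this in the results was not tested. Reads on the ligand transgene stood at 8221 and 8878 per 1000000 human reads beside C2C12-control, with HEK-Jag1WT and HEK-Jag1Ndr respectively, and at 8701 and 9448 beside C2C12-Notch1. Defining myoblast markers were present, with desmin (Des) between 339 and 589 RPKM and Itga7 between 278 and 343 RPKM in the 4 wells. Summed over 17 C2C12 markers, the level was 13401 to 14619 RPKM with HEK-Jag1WT and 13758 to 14420 RPKM with HEK-Jag1Ndr. Single markers did differ. Of the 16 tested, Myod1 was higher and Myf5 and Cdh15 were lower beside HEK-Jag1Ndr (18.8%, against 2.02% of all genes), as described below. The sum over 14 HEK markers in the mouse table was 227 to 296 RPKM with HEK-Jag1WT and 208 to 301 RPKM with HEK-Jag1Ndr, and Krt18 and Sall4 were at 0 in all 4 wells. Nefl, at 81.9 to 144 RPKM, and Stmn2, at 37.4 to 89.5 RPKM, supplied much of that sum, with Krt19 at 78 and 72.2 RPKM in the control/WT and control/Ndr wells and 12.3 and 6.16 RPKM in the Notch1/WT and Notch1/Ndr wells. The ribosomal RNA precursor entry Rn45s, chosen after its values were seen, stood at 1108 and 2029 CPM in the C2C12-control wells and at 2473 and 1832 CPM in the C2C12-Notch1 wells.

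Beside Nodder Jag1, the myoblasts held less mRNA of Notch target genes and of a wider set of genes, and more of a smaller set. At an edgeR adjusted p under 0.05, 230 of 11364 genes passed, which is 2.02%. Of these, 152 were lower (1.34%) and 78 were higher (0.686%) beside HEK-Jag1Ndr. More than 2-fold differences were found for 20 of the lower genes and 1 of the higher genes. The median size of a passing difference was 0.43 on the log2 scale, against 0.094 over all genes tested. The median signed difference over all genes was 0.00. All 152 lower genes were lower in both C2C12 lines taken singly, and 71 of the 78 higher genes were higher in both. That agreement is largely set by the selection, since the paired fit counts disagreement between the lines as spread. For 21 passing genes, 15 of them higher, both C2C12-Notch1 wells held fewer than 20 reads, so these rested on the C2C12-control pair.

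Notch targets, the direct readout of receptor activation, stood nearest to the ligand. Of 10 tested members, 4 were lower and 1 was higher (50%, against 2.02% of all genes), and the list median was -0.71, against 0.00 for all genes. The list was chosen with earlier results of these data known, so its direction is not independent evidence.

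Nrarp encodes a feedback inhibitor that acts on the Notch intracellular domain complex. It held 75 and 16 reads in the C2C12-control wells with HEK-Jag1WT and HEK-Jag1Ndr, and 174 and 22 reads in the C2C12-Notch1 wells. In CPM these were 16.4 and 2.02, then 77.9 and 5.75, beside 0.501 and 1.88 in the HEK-control wells of the same lines. Both Nodder wells lay under both wild-type wells and over both HEK-control wells. The level was 11.1-fold higher beside HEK-Jag1WT than beside HEK-Jag1Ndr (log2 -3.48, SE 0.22, edgeR adjusted p 5.23e-19).

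Hey1 encodes a repressor that is a direct Notch target. It stood at 266 and 89.1 CPM in C2C12-control cells, and at 394 and 182 CPM in C2C12-Notch1 cells, with HEK-Jag1WT and HEK-Jag1Ndr in that order. The HEK-control wells of the same lines held 33.2 and 82.2 CPM. Within each line the Nodder well lay between the control and the wild-type well, and the difference was -1.36 (SE 0.14, adjusted p 0.00431). On single wells of C2C12-control it was -1.58, with a 95% counting interval of -1.72 to -1.45, and on those of C2C12-Notch1 -1.11, with -1.26 to -0.97. The highest adjusted p of Hey1 with DESeq2 or limma was 0.107.

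Heyl, a repressor gene of the same family, fell outside the threshold in spite of a large difference. Its levels were 510 and 125 CPM in C2C12-control cells and 152 and 64.3 CPM in C2C12-Notch1 cells, with 31.5 and 26.5 CPM beside HEK-control. Every Nodder well was under every wild-type well. The fitted difference was -1.79 (SE 0.37, adjusted p 0.422), and -1.79 with only the 4 wells compared, where the adjusted p was 4.96e-131 on 1 residual degree of freedom. Across the alternatives the adjusted p of Heyl lay between 1.21e-135 and 1. Its single-well values in the 2 lines had counting intervals that did not overlap, given below. The upper end of its adjusted p range came from the fit without the C2C12 line term, which called 0 genes. Nrarp and Hey1 share that upper end.

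Notch3, a receptor gene that is itself a Notch target, stood at 472 and 309 CPM in C2C12-control cells and at 623 and 364 CPM in C2C12-Notch1 cells. The difference was -0.68 (SE 0.076, adjusted p 5.78e-06), and the groups did not overlap. The highest adjusted p of Notch3 with DESeq2 or limma was 0.117. Gata3, a transcription factor gene, stood at 22.6 and 13.9 CPM and at 24.2 and 14.1 CPM in the same order, a difference of -0.73 (adjusted p 0.00715). Both Nodder wells were close to the HEK-control wells, at 11.5 and 14.9 CPM. The Gata3 call was lost without the Notch1/Ndr well (adjusted p 0.102) or the C2C12-control wells with HEK-Jag1WT (0.388) or HEK-Jag1Ndr (0.0802), and its adjusted p lay between 0.000773 and 1 across the alternatives.

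Ccnd1, the cyclin D1 gene, went the other way. Its levels were 457 and 539 CPM in C2C12-control cells and 384 and 460 CPM in C2C12-Notch1 cells, a difference of 0.25 (adjusted p 0.00697). That call was lost without any of the 4 wells compared, with adjusted p values of 0.0513 to 0.3, in a range from 0.0015 to 1. The members that did not pass were Hey2 at -0.86 (adjusted p 0.694) on 4 to 11 reads per well, Hes1 at -0.20 (0.627), Lfng at -0.12 (0.923) and Myc at 0.04 (0.953). For Hes1 the levels were 49.6 and 40.9 CPM in C2C12-control cells and 47.5 and 45.2 CPM in C2C12-Notch1 cells, so both Nodder wells were under both wild-type wells, by little.

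**Figure D1:**
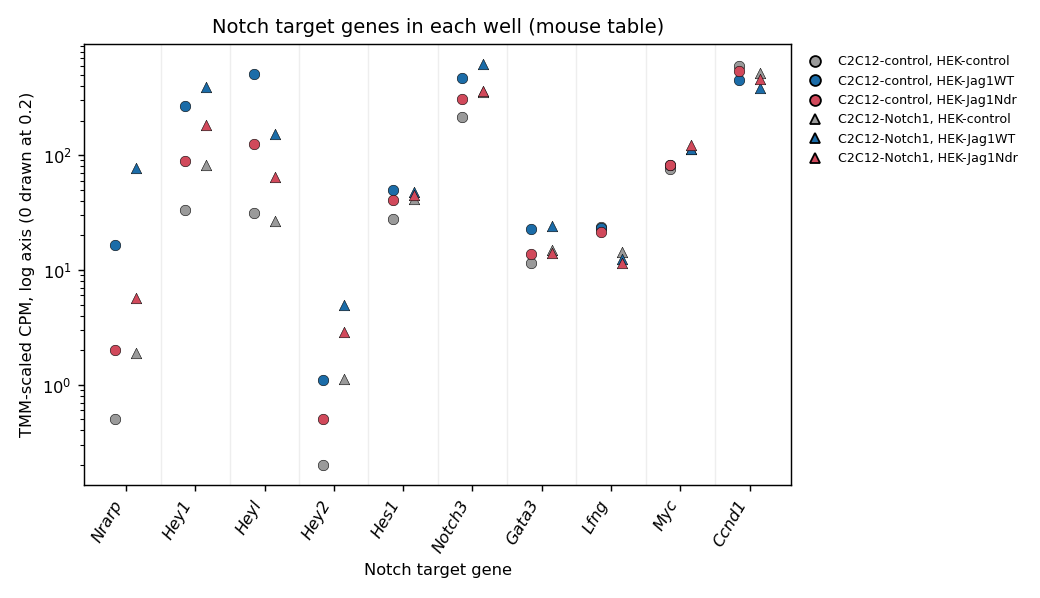
TMM-scaled CPM (log axis) of the 10 tested Notch target genes, 1 point per well, with circles for C2C12-control, triangles for C2C12-Notch1 and colours for the HEK partner; the single value of 0 is drawn at 0.2. Nrarp, Hey1 and Heyl are ordered HEK-control, HEK-Jag1Ndr, HEK-Jag1WT in both lines, while Lfng and Myc show no such order.

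Genes that carry the signal passed at a share near that of all genes. Of 29 tested Notch machinery genes 1 passed (3.45%, against 2.02% of all genes). It was Dtx4, which encodes a ubiquitin ligase of the Deltex family, at -0.33 (adjusted p 0.0132). Its levels were 119 and 88.7 CPM in C2C12-control cells and 159 and 136 CPM in C2C12-Notch1 cells. The Dtx4 call was lost without the control/WT well (adjusted p 0.84) or the control/Ndr well (0.112) or the Notch1/Ndr well (0.101), in a range from 0.000804 to 1. Of the 4 tested Notch receptors and ligands other than Notch3 and Jag1, edgeR passed 0, DESeq2 0 and limma 0, with 1 at an unadjusted p under 0.05. The receptor gene Notch1 stood at 197 and 122 CPM in C2C12-control cells, where 85.7 CPM was seen beside HEK-control, and at 1723 and 1502 CPM in C2C12-Notch1 cells. Its difference of -0.41 (adjusted p 0.866) covered single-well values of -0.69 (counting interval -0.82 to -0.56) and -0.20 (-0.26 to -0.14). The second pair includes reads from the introduced gene.

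Outside the Notch target list, the genes with the largest lower values stood high beside HEK-Jag1WT and low beside HEK-control. The uncharacterised entry 8430408G22Rik stood at 80.7 and 9.73 CPM in C2C12-control cells and at 55.5 and 6.27 CPM in C2C12-Notch1 cells, with 3.25 and 5.64 CPM beside HEK-control. It was 8.39-fold higher beside HEK-Jag1WT (log2 -3.07, SE 0.15, adjusted p 6.72e-23). The single-well values, -3.00 and -3.06, were nearly equal in the 2 lines.

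Sec14l2, which encodes a lipid-binding protein, stood at 176 and 73.4 CPM in C2C12-control cells and at 214 and 80.2 CPM in C2C12-Notch1 cells (log2 -1.33, SE 0.080, adjusted p 1.73e-19). Beside HEK-control it held 43.2 and 53.1 CPM, so each Nodder well lay above its control and under its wild-type well. Dio2, the deiodinase that activates thyroid hormone, had the same order in both lines. It stood at 114 and 44.4 CPM in C2C12-control cells and at 177 and 80 CPM in C2C12-Notch1 cells, with 27 and 39.7 CPM beside HEK-control (log2 -1.26, SE 0.088).

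Rassf4, a gene of the Ras association domain family, stood at 13.8 and 6.44 CPM in C2C12-control cells and at 13.4 and 1.83 CPM in C2C12-Notch1 cells (log2 -1.49, adjusted p 0.000312). Tmc3, of a family of transmembrane channel-like proteins, stood at 16.2 and 6.7 CPM and at 52.8 and 20.1 CPM in the same order (log2 -1.34, adjusted p 1.2e-06). Beside HEK-control, Rassf4 stood at 4.75 and 5.27 CPM and Tmc3 at 2 and 18.1 CPM. The adhesion receptor gene Gpr133 was lower by a log2 difference of -1.47, the calcium sensor gene Ncald by -1.16, the chemerin receptor gene Cmklr1 by -1.10, the villin-like gene Vill by -1.09 and the phosphodiesterase gene Pde1b by -1.08. These 5 genes had at most 35.8 CPM in any of the 4 wells. Each of their calls was lost without the control/Ndr well, where adjusted p was 0.108, 0.392, 0.117, 0.122 and 0.281. Without the control/WT well, Gpr133, Ncald, Vill and Pde1b were lost at 0.0734, 0.311, 0.416 and 0.0734, and Vill also without the Notch1/Ndr well (0.0791). Over all alternatives the adjusted p of the 5 ranged up to 1 and down to 7.72e-08, 0.000138, 1.45e-05, 0.000518 and 9.05e-10.

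Of the higher genes, those with the largest differences under the naming rule were Cxcl5, Wnt10b, Ptpn22 and Myod1. Cxcl5, a chemokine gene for neutrophils, held 23 and 125 reads in the C2C12-control wells with HEK-Jag1WT and HEK-Jag1Ndr, or 5.04 and 15.8 CPM. In C2C12-Notch1 cells it held 0 and 10 reads. The fitted difference was 1.77 (adjusted p 0.00016), and in C2C12-control alone it was 1.57 (counting interval 1.00 to 2.36). Its call was lost without the control/WT well (adjusted p 0.286), in a range from 9.08e-07 to 1. Wnt10b, a Wnt ligand gene, stood at 14.3 and 27 CPM in C2C12-control cells, with 25 CPM beside HEK-control, and under 4 CPM in all C2C12-Notch1 wells (log2 0.91, adjusted p 0.00628). It was the 1 call among 8 tested Wnt genes (12.5%). The Wnt10b difference was 1.47 without the control/WT well (adjusted p 0.767) and 0.00 without the corresponding Ndr well (adjusted p 1), in a range from 0.000195 to 1.

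Other members of this set were the phosphatase gene Ptpn22 at 0.88, the corepressor gene Tle2 at 0.81, the ceruloplasmin gene Cp at 0.79, 2410017I17Rik at 0.77, the potassium channel gene Kcnn4 at 0.63, the planar polarity gene Prickle1 at 0.62 and the cadherin gene Cdh18 at 0.61. Kcnn4 stood at 75 and 105 CPM in C2C12-control cells and at 30.9 and 65.3 CPM in C2C12-Notch1 cells. Its HEK-control wells were highest, at 117 and 88.4 CPM. Cdh18 had the same order, with 28.7 and 42.7 CPM and then 20.1 and 32.4 CPM, under 53.7 and 35.2 CPM beside HEK-control. Without the control/WT well the adjusted p of Ptpn22, Tle2, Cp, 2410017I17Rik, Prickle1 and Cdh18 was 0.361, 0.482, 0.92, 0.629, 0.139 and 0.326. Without the control/Ndr well that of Ptpn22, Tle2, Cp, 2410017I17Rik, Prickle1 and Kcnn4 was 0.748, 0.974, 0.512, 0.736, 0.132 and 0.0618. The Tle2 difference was 0.14 in that second fit. Tle2 was lost without the Notch1/WT well (0.0806), and 2410017I17Rik without either C2C12-Notch1 well with a Jag1 partner (0.128 and 0.0633). The lowest adjusted p of these 7 genes over all alternatives was between 2.18e-09 and 0.00655, and the highest was 1.

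**Figure D2:**
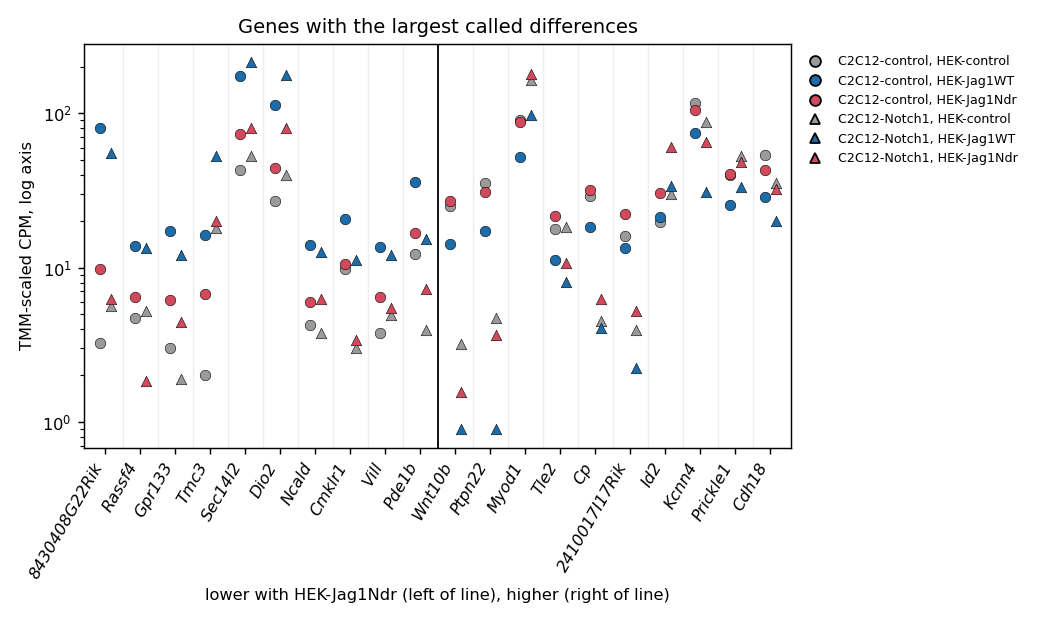
TMM-scaled CPM (log axis) in all 6 wells for 10 genes lower and 10 genes higher beside HEK-Jag1Ndr, separated by the vertical line, with symbols and colours as for the Notch targets. To the left the HEK-Jag1WT points are highest within each line. To the right they are lowest within each line except for Id2, whose HEK-control points are lowest.

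The muscle determination genes were shifted in opposite directions. Myod1, the master regulator of myogenesis, stood at 52.2 and 88.3 CPM in C2C12-control cells with HEK-Jag1WT and HEK-Jag1Ndr, and at 98.1 and 179 CPM in C2C12-Notch1 cells. Beside HEK-control it stood at 90.7 and 165 CPM, so the Nodder wells were near the control wells and the wild-type wells under both. The difference was 0.81 (SE 0.088, adjusted p 1.33e-09), or 1.76-fold. Myf5, a determination factor that acts earlier, stood at 186 and 96.4 CPM in C2C12-control cells and at 166 and 97.7 CPM in C2C12-Notch1 cells, beside 77.7 and 62.7 CPM with HEK-control (log2 -0.87, SE 0.080, adjusted p 3.99e-12). The human genes MYF5 and MYOD1 were at 0 and at most 0.326 RPKM in the human table of these wells.

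Of 12 tested myogenic regulators 2 were higher and 1 lower (25%), with a list median of -0.05. Besides Myod1 and Myf5 this was Cdon, a cell-surface receptor gene that promotes myogenesis, at 126 and 153 CPM in C2C12-control cells and 198 and 244 CPM in C2C12-Notch1 cells (log2 0.29, adjusted p 0.0091). The Cdon call was lost without any of the 4 wells compared, with adjusted p values of 0.0987 to 0.254, in a range from 0.00216 to 1. Myog, the differentiation factor downstream of Myod1, did not pass (0.38, adjusted p 0.274). It stood at 17.3 and 17.6 CPM in C2C12-control cells and at 35.8 and 57 CPM in C2C12-Notch1 cells. The stem cell factor gene Pax7 stood at a log2 difference of -0.49 (adjusted p 0.3) and the repressor gene Msc at -0.43 (0.22).

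Among C2C12 markers, Cdh15, the muscle cadherin gene, stood at 1434 and 925 CPM in C2C12-control cells and at 2008 and 1355 CPM in C2C12-Notch1 cells, with 538 and 1032 CPM beside HEK-control. Its difference was -0.60 (adjusted p 0.00258), lost without the control/Ndr well (adjusted p 0.153, range 4.06e-25 to 1). Sarcomere genes, the contractile products of differentiation, gave 0 of 25 by edgeR, DESeq2 and limma, with 4 at an unadjusted p under 0.05 and a median of 0.03. In a list of 25, 0 calls is near the edgeR share of 2.02% over all genes. Of 8 contractile and mural cell genes 1 passed (12.5%), the platelet-derived growth factor receptor gene Pdgfrb. It stood at 377 and 283 CPM in C2C12-control cells and at 139 and 93.8 CPM in C2C12-Notch1 cells (log2 -0.46, adjusted p 4.51e-06).

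Id genes, which encode inhibitors of myogenic factors and respond to bone morphogenetic proteins, were higher beside the Nodder partner in 2 of 9 list members tested (22.2%), with 0 lower. Id2 stood at 21.3 and 30.6 CPM in C2C12-control cells and at 34 and 60.4 CPM in C2C12-Notch1 cells, against 19.7 and 30.1 CPM with HEK-control (log2 0.67, SE 0.13, adjusted p 0.000718). Id1 stood at 34.7 and 40.4 CPM and at 56.9 and 90.7 CPM in the same order (log2 0.44, adjusted p 0.0169). For both genes the Nodder well of each line lay above its wild-type and its HEK-control well. Both calls were lost without the Notch1/WT well (adjusted p 0.0854 for Id2, 0.679 for Id1) or the Notch1/Ndr well (0.126 and 0.757), in ranges from 1.66e-05 and 0.0013 to 1. The human genes of the same name were also higher beside the Nodder ligand. ID1 stood at 3.72 and 12.9 RPKM in the human table of the C2C12-control wells with HEK-Jag1WT and HEK-Jag1Ndr, and at 5.06 and 25.6 RPKM in the C2C12-Notch1 wells. ID2 stood at 35 and 91 RPKM and at 34.7 and 87.8 RPKM. Whether human reads entered the mouse counts of these genes was not tested. Id3, another member, stood at -0.11 (adjusted p 0.79).

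Ligands and targets of TGF-beta split. Of 14 tested, 3 were lower and 2 higher (35.7%), with a median of 0.04. The ligand gene Tgfb2 stood at 59.4 and 34.5 CPM in C2C12-control cells and at 132 and 86.2 CPM in C2C12-Notch1 cells (log2 -0.69, SE 0.096, adjusted p 8.74e-07), and Tgfb1 at 184 and 145 CPM and at 155 and 117 CPM (log2 -0.36, adjusted p 0.00081). For both ligands the HEK-control wells of each line were lowest, at 21.2 and 53.3 CPM for Tgfb2 and 130 and 104 CPM for Tgfb1.

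The 2 higher genes of that list were Skil, a repressor of Smad signalling, and Ctgf, a matricellular growth factor that is also on the YAP target list (1 of 13, 7.69%). Skil stood at 113 and 144 CPM in C2C12-control cells and at 161 and 193 CPM in C2C12-Notch1 cells (log2 0.32, adjusted p 0.00547). Its call was lost without the control/WT well (adjusted p 0.43) or the control/Ndr well (0.122), in a range from 0.000698 to 1. Ctgf stood at 109 and 140 CPM and at 394 and 550 CPM (log2 0.42, adjusted p 0.026), lost without the Notch1/Ndr well (0.339, range 9.23e-09 to 1). Human CTGF was also higher with the Nodder partner, at 25.8 and 66.9 RPKM beside C2C12-control and at 28 and 87.4 RPKM beside C2C12-Notch1. Its part in the mouse value was not tested.

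Among matrix genes that passed, most were lower. Of 15 collagen genes 2 passed (13.3%), both lower, with a median of -0.09. Col5a3, a chain of the fibril-forming collagen V, stood at 750 and 520 CPM in C2C12-control cells and at 1167 and 744 CPM in C2C12-Notch1 cells, with 339 and 636 CPM beside HEK-control (log2 -0.58, SE 0.064, adjusted p 9.05e-08). Col6a3, a chain of the microfibrillar collagen VI, stood at 763 and 688 CPM and at 580 and 385 CPM (log2 -0.34, adjusted p 0.0192). The Col6a3 call was lost without the Notch1/WT well (0.284) or the Notch1/Ndr well (0.464) or the control/HEK-control well (0.139), in a range from 5.76e-10 to 1. The other 2 main chains of collagen VI, named after their values were seen, had larger differences that did not pass. Col6a1 stood at 514 and 340 CPM in C2C12-control cells and at 522 and 153 CPM in C2C12-Notch1 cells (log2 -1.10, adjusted p 0.681), and Col6a2 at 158 and 107 CPM and at 158 and 34.2 CPM (-1.07, adjusted p 0.738). Both were lower beside the Nodder partner in each line, by unequal amounts.

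Of 22 matrix glycoproteins and proteoglycans 3 were lower and 1 higher (18.2%), with a median of -0.08. The list median was 0.03 within C2C12-control cells and -0.21 within C2C12-Notch1 cells. The basement membrane gene Nid2 stood at 121 and 88.3 CPM in C2C12-control cells and at 142 and 85.2 CPM in C2C12-Notch1 cells (log2 -0.57, adjusted p 0.000121). The thrombospondin genes moved apart, with Thbs1 at -0.32 (adjusted p 0.00016) and Thbs2 at 0.24 (adjusted p 0.013). Mgp, an inhibitor of calcification, stood at -0.33 (adjusted p 0.01). Without the Notch1/WT well the adjusted p of Thbs1, Thbs2 and Mgp was 0.138, 0.409 and 0.385. That of Thbs2 was also 0.343 without the Notch1/Ndr well and 0.177 without the control/WT well, and that of Mgp was 0.305 without the Notch1/Ndr well. Their lowest values over all alternatives were 6.54e-06, 0.00357 and 0.000641, and their highest 1. The hyaluronan synthase gene Has2, named after its values were seen, stood at 99.6 and 61.9 CPM in C2C12-control cells and at 316 and 188 CPM in C2C12-Notch1 cells (log2 -0.72, adjusted p 0.598).

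**Figure D3:**
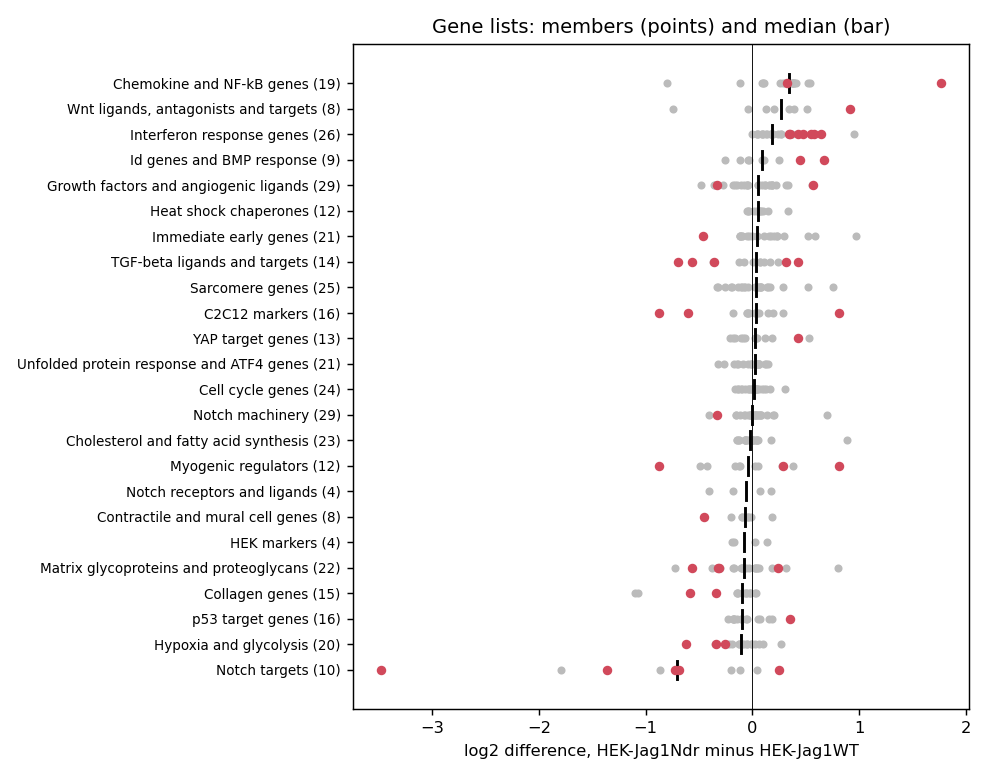
Log2 difference between HEK-Jag1Ndr and HEK-Jag1WT for each tested member of 24 gene lists, with the number tested in parentheses, red where the edgeR adjusted p was under 0.05 and a black bar at the list median. The Notch target list lies lowest, at -0.71, and the other medians lie between -0.11 and 0.34.

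Inflammatory genes had a median above 0 and few calls. Of 19 tested chemokine and NF-kB genes 2 were higher and 0 lower (10.5%), with a median of 0.34, against 0.00 for all genes. The list median was 0.37 within C2C12-control cells and 0.12 within C2C12-Notch1 cells. In both C2C12-Notch1 wells 5 of the 19 had fewer than 20 reads. DESeq2 called 0 of the 19, and limma on log2(RPKM + 0.5) called 0. Beside Cxcl5, described above, the second was Csf1, the macrophage growth factor gene, at 147 and 181 CPM in C2C12-control cells and 195 and 246 CPM in C2C12-Notch1 cells (log2 0.32, adjusted p 0.00237). The Csf1 call was lost without the Notch1/WT well (adjusted p 0.172) or the control/Ndr well (0.0911), in a range from 0.000236 to 1. Members that did not pass included Lif at 0.54 (0.23), Cxcl10 at 0.52 (0.13), Ccl2 at 0.38 (0.21) and Il6 at -0.80 (0.56).

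Interferon response genes, the antiviral programme, were higher beside the Nodder partner in C2C12-control cells, the line in which they could be read. Of 26 tested members 7 were higher and 0 lower (26.9%), with a median of 0.19. Within C2C12-control cells the list median was 0.20, and within C2C12-Notch1 cells, where 18 of the 26 had fewer than 20 reads in both wells, it was 0.00. Ifit3, an antiviral adaptor gene, held 266 and 723 reads in the C2C12-control wells with HEK-Jag1WT and HEK-Jag1Ndr, or 58.3 and 91.4 CPM, beside 62 CPM with HEK-control. In both C2C12-Notch1 wells it had 0 reads. The single-well ratio in C2C12-control was 0.64 (counting interval 0.44 to 0.86) and the fitted difference 0.65 (adjusted p 0.000332). Usp18, which removes the modifier Isg15 from proteins, stood at 90.6 and 135 CPM in C2C12-control cells (0.57, adjusted p 0.000429), Ifit1 at 128 and 178 CPM (0.48, 0.00164) and Oasl2 at 272 and 349 CPM (0.36, 0.00434). Oasl1, a related gene outside the list, stood at 31.6 and 48.1 CPM (0.61, 0.0116). In each case the Nodder well lay above both the wild-type and the HEK-control well of C2C12-control cells.

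These calls rested on 1 pair of wells. Without the control/WT well, the adjusted p of Ifit3, Usp18, Ifit1, Oasl2 and Oasl1 was 0.916, 0.998, 0.945, 0.988 and 0.941, and without the corresponding Ndr well it was 0.855, 0.691, 0.722, 0.979 and 0.99. Usp18 turned to -0.15 and -4.11 in these fits and Ifit3 to -3.17 in the second. Over all alternatives their adjusted p ran from 8.09e-07, 7.98e-07, 1.67e-05, 0.000503 and 0.000829 to 1, and DESeq2 called 0 of the 26 members. In the partner cells of the same wells, human IFIT3 stood at 196 and 618 RPKM beside C2C12-control with HEK-Jag1WT and HEK-Jag1Ndr, and at 354 and 985 RPKM beside C2C12-Notch1. IFIT1 stood at 116 and 394 RPKM and at 213 and 624 RPKM. Human IRF7 went the other way, at 5.3 and 4.13 RPKM and at 6.05 and 3.53 RPKM. In the C2C12-Notch1 wells with HEK-Jag1WT and HEK-Jag1Ndr, mouse Ifit3 held 0 and 0 reads and mouse Ifit1 held 1 and 5. Whether human reads entered the mouse counts of the interferon genes was not tested.

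**Figure D4:**
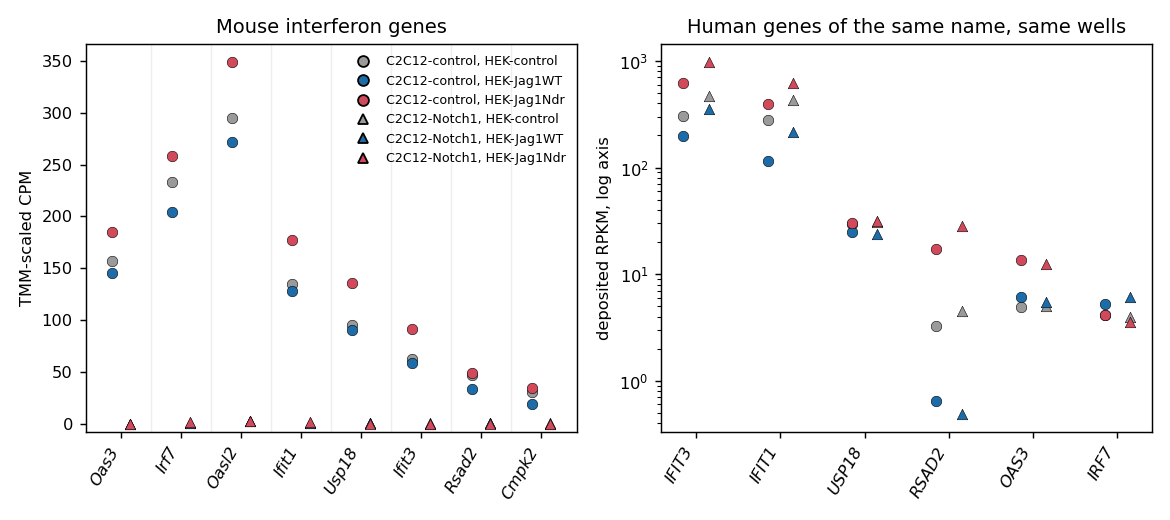
Left, TMM-scaled CPM of 8 mouse interferon genes in all 6 wells on a linear axis; right, deposited RPKM (log axis) of 6 human genes of the same name in the same wells, with symbols and colours as for the Notch targets. The C2C12-Notch1 triangles lie at or near 0 on the left, and the C2C12-control circles are highest with HEK-Jag1Ndr. On the right, human IFIT3, IFIT1 and RSAD2 are also highest with HEK-Jag1Ndr, while IRF7 is lowest with it beside both C2C12 lines.

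Among metabolic genes, 3 of 20 hypoxia and glycolysis genes were lower and 0 higher (15%), with a median of -0.11. Within C2C12-control cells the list median was -0.04, and within C2C12-Notch1 cells it was -0.22. Ddit4, an inhibitor of the growth kinase mTORC1 that responds to stress, stood at 357 and 232 CPM in C2C12-control cells and at 292 and 190 CPM in C2C12-Notch1 cells, with 186 and 173 CPM beside HEK-control (log2 -0.62, SE 0.064, adjusted p 3.25e-10). The pyruvate dehydrogenase kinase gene Pdk1 stood at -0.34 (adjusted p 0.00978) and Ndrg1 at -0.26 (0.0175). Both of these were lost without the Notch1/WT well (adjusted p 0.412 and 0.792), and without the corresponding Ndr well (0.0788 and 0.406), in ranges from 0.000291 and 0.00306 to 1. The glycolytic enzyme gene Eno1, at 0.27, had the highest value of the list.

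In 3 further lists 1 or 2 genes passed, where 2.02% of all genes did. Dusp1, a phosphatase gene that is an immediate early gene (1 of 21, 4.76%), stood at 136 and 99.3 CPM in C2C12-control cells and at 121 and 86.5 CPM in C2C12-Notch1 cells (log2 -0.46, adjusted p 0.000202). Plk2, a p53 target gene (1 of 16, 6.25%), stood at 0.35 (adjusted p 0.02). Of 29 growth factors and angiogenic ligands (6.9%), the semaphorin gene Sema3c was higher at 0.56 (0.0211) and Hbegf, an EGF receptor ligand gene, lower at -0.33 (0.012). The Dusp1 call was lost without the control/Ndr well (adjusted p 0.117, range 6.67e-07 to 1). Those of Plk2, Sema3c and Hbegf were each lost without 3 of the 4 wells compared, with adjusted p values of 0.213 to 0.551, 0.0682 to 0.754 and 0.183 to 0.483, in ranges from 0.00272, 0.00421 and 0.00142 to 1.

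Several programmes gave no call by edgeR, DESeq2 or limma. These were cell cycle genes (0 of 24), cholesterol and fatty acid synthesis (0 of 23), unfolded protein response and ATF4 genes (0 of 21) and heat shock chaperones (0 of 12). At an unadjusted edgeR p under 0.05 they counted 1, 2, 2 and 0, and their medians lay between -0.02 and 0.05. With 12 to 24 members each, 0 calls is near the edgeR share of 2.02% over all genes. The 4 tested HEK markers gave 0 calls by each tool, with 1 at an unadjusted p under 0.05 and a median of -0.08.

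The comparison was also read within each C2C12 line, on 1 well against 1 well and with no test. Among 7293 genes with at least 100 reads in 1 or both wells of each pair, 176 were called by the fit, and all 176 had the same sign in both lines. Over all 7293 genes, 4074 (55.9%) had the same sign. Since the paired fit counts disagreement between the lines as spread, agreement in sign among its calls is largely set by the selection and supports nothing. Of the 152 lower genes in all, 108 had the larger difference in C2C12-Notch1 cells and 44 in C2C12-control cells. Of the 78 higher genes these were 46 and 32. The same split over all genes was not counted. With HEK-Jag1WT and HEK-Jag1Ndr the C2C12-Notch1 wells had 2263529 and 3845739 mouse reads, against 4613336 and 7965231 for C2C12-control. Ratios in C2C12-Notch1 cells thus carry more counting error, and the splits show no stronger response of that line. For 137 lower and 51 higher genes the counting intervals of both lines lay on the same side of 0. Whether the 2 lines differed was not tested, since no residual degree of freedom is left for it.

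Some genes had counting intervals that did not overlap between lines. Heyl stood at -2.02 in C2C12-control cells (-2.13 to -1.92) and at -1.23 in C2C12-Notch1 cells (-1.48 to -0.999). Hey1, at -1.58 and -1.11, and Notch1, at -0.69 and -0.20, also had the larger difference in C2C12-control cells. The Notch1 reads of the C2C12-Notch1 wells include the introduced gene. Col6a1 stood at -0.60 (-0.68 to -0.52) and -1.77 (-1.92 to -1.63), and Col6a2 at -0.55 (-0.70 to -0.41) and -2.19 (-2.50 to -1.91). Larger values in C2C12-Notch1 were also seen for Mgp, at -0.18 and -0.67, Pdk1, at -0.21 and -0.68, Ndrg1, at -0.13 and -0.48, and Kcnn4, at 0.49 and 1.07. These intervals cover counting error only.

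**Figure D5:**
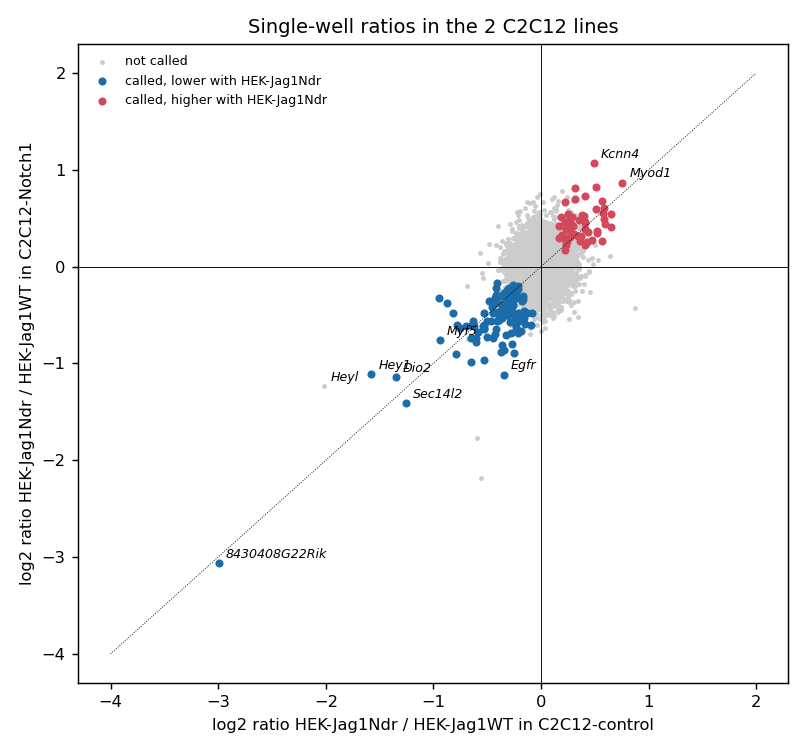
Single-well log2 ratio of HEK-Jag1Ndr over HEK-Jag1WT in C2C12-control (horizontal) and C2C12-Notch1 cells (vertical) for 7293 genes with at least 100 reads in 1 or both wells of each pair, with genes called lower in blue, higher in red and a dotted line of equal ratios. The 176 called genes lie in the lower left and upper right quadrants, and Heyl lies off the dotted line without being called.

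The same fit gives the distance of each partner from HEK-control. These comparisons share wells with the one above, so only their own values are set side by side. Against HEK-control, 506 genes passed for HEK-Jag1WT (4.45%) and 59 for HEK-Jag1Ndr (0.519%). Nrarp stood 5.26 above HEK-control with HEK-Jag1WT and 1.79 above it with HEK-Jag1Ndr (log2), 8430408G22Rik at 3.86 and 0.79, and Hey1 at 2.56 and 1.20. Sec14l2 stood at 2.01 and 0.68, Dio2 at 2.14 and 0.88, Myf5 at 1.34 and 0.46 and Col5a3 at 1.00 and 0.41. For Myod1 the values were -0.77 and 0.05, and for Ddit4 0.85 and 0.23. Id2, at 0.18 and 0.85, and Ifit3, at -0.10 and 0.55, had the larger value with HEK-Jag1Ndr.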

How the data were processed

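Gene expression was measured by RNA sequencing of polyA RNA in 6 co-culture wells, 1 per combination of lines. Per the submitters' processing notes, STAR was used, with mm9 and hg19 as builds. How reads were counted and split by species is not given in the sources used here. Per the file headers, the authors deposited whole-number read counts and RPKM per RefSeq gene and well, in a mouse and a human table. The mouse file had 472 lines that repeated another exactly and were dropped. It had 93 names used more than once, which received a suffix, and 121 names that join several genes. The kit named in the labels does not mark strand, so overlapping and antisense genes cannot be told apart.

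The deposited counts were fitted with edgeR 4.0.16 in R 4.3.3 (TMM, filterByExpr, robust quasi-likelihood, Benjamini-Hochberg at 0.05 over all genes tested with Jag1 in the fit). The common biological coefficient of variation was 3.89%. The deposited RPKM served for markers, human levels (matched by symbol in capitals) and an alternative with limma 3.58.1 on log2(RPKM + 0.5) or log2(RPKM + 0.1). The further alternatives were DESeq2 1.42.0, other scalings and filters, the 4 wells alone, no line term, and leaving out each well. Single-well ratios use a prior count of 2, and their 95% intervals are exact conditional binomial ones that cover counting error only. The main edgeR fit was tried on simulated counts, and DESeq2 and limma were not. The simulation gave both C2C12 lines the same means, so it did not cover unequal responses of the lines.

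Named genes were the tested Notch targets, up to 12 lower and 12 higher by size (adjusted p under 0.05, average log2 CPM of at least 2, same sign in both lines), up to 4 called members per list by smallest p, and Notch1, Myod1, Myf5 and Myog. The genes, the 24 lists and the rule were chosen with earlier results of these data known. No sequences or coordinates were used here, and the planned promoter motif counts were not run. The result of 1 gene is not reported here.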

Additional observations from a re-analysis of the deposited data

Results flagged for a closer look

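Among the 83 genes chosen by the naming rule or after their values were seen, 5 had single-well differences between HEK-Jag1Ndr and HEK-Jag1WT of opposite sign in the C2C12 lines. Other genes outside these 83 also had opposite signs, such as Id3 at -0.35 and 0.13 and Cxcl10 at 0.53 and -0.48 in C2C12-control and C2C12-Notch1 cells. Whether the lines differ was not tested. Rn45s stood at 0.87 in C2C12-control and -0.43 in C2C12-Notch1 cells. Myc stood at -0.012 and 0.11, and the EGF receptor ligand gene Ereg at 0.019 and -0.50. Usp18 stood at 0.58 and -1.03 and Rsad2, another interferon gene, at 0.56 and -1.03, where each C2C12-Notch1 value comes from 1 read against 0.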

How the results depend on the processing

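The counts of genes higher and lower beside HEK-Jag1Ndr, 78 and 152, stayed within 1.5 times under other edgeR scalings, filters and the fit without robust. They were 9 and 31 with DESeq2, 1 and 6 with limma on log2(RPKM + 0.5), and 1 and 6 with a pseudocount of 0.1, with 977 and 957 genes at an unadjusted limma p under 0.05 in both directions together. With only the 4 wells compared, 130 were higher and 192 lower. Without the C2C12 line term (no replicate block), edgeR called 0 and 0, with 79 genes at an unadjusted p under 0.05, so the calls need the pairing by line. In that fit Nrarp, Hey1, Sec14l2, Myod1 and Myf5 also had an adjusted p of 0.9998. An upper end that high in the ranges above therefore sets no gene apart. Leaving out 1 well gave 26 to 122 higher and 90 to 190 lower genes. The lowest number of higher genes, 26, came without the control/WT well (41 without the control/Ndr well, 47 without the Notch1/WT well), and the highest, 122, without the Notch1/HEK-control well. The lower genes numbered 90 and 91 without the C2C12-Notch1 wells with HEK-Jag1Ndr and HEK-Jag1WT. The share of lower genes among calls, 66.1%, was 77.5% with DESeq2, 85.7% with limma and 81.4% without the control/WT well. Of 70 named genes called, 23 were called in every fit that left out 1 well. Signs turned for Usp18 with DESeq2 (-0.0015), limma at 0.5 (-0.00059) and limma at 0.1 (-0.61), and for Rsad2 with limma at 0.1 (-0.049). Without 1 well, the values ran from -4.11 to 0.58 for Usp18, -3.79 to 0.56 for Rsad2, -3.17 to 3.49 for Ifit3, -1.84 to 2.44 for Cmpk2, -0.31 to 0.73 for Rn45s, -0.35 to 0.048 for Hes1, -0.010 to 0.11 for Myc and -0.30 to 0.099 for Areg. The cause was not tested. The labels number no replicates, so the pairing is by C2C12 line.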

Other observations

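Of 5 genes that encode the EGF receptor, its ligands or its inhibitor, chosen after their values were seen, 2 were lower, 1 was higher and 2 did not pass. The ligand gene Hbegf, described above as lower (-0.33, edgeR adjusted p 0.012), is not counted among these 5. The receptor gene Egfr stood at 72.8 and 57.2 CPM in C2C12-control cells with HEK-Jag1WT and HEK-Jag1Ndr, and at 96.7 and 44.4 CPM in C2C12-Notch1 cells (log2 -0.64, edgeR adjusted p 0.00285). Its ligand gene Btc, betacellulin, stood at 38.2 and 27.5 CPM and at 32.2 and 15.4 CPM (-0.63, adjusted p 0.00285). Errfi1, a feedback inhibitor of the receptor, went up, from 140 to 208 CPM in C2C12-control and from 116 to 171 CPM in C2C12-Notch1 cells (0.57, adjusted p 3.78e-07). The ligand genes Areg and Ereg stood at -0.11 (adjusted p 0.901) and -0.15 (0.799). The Egfr call was lost without the Notch1/WT well (adjusted p 0.078) or the Notch1/Ndr well (0.0545) or the control/HEK-control well (0.102), in a range from 5.78e-09 to 1. The Btc call was lost without the first (0.183) or the second (0.059) of these, in a range from 0.000146 to 1.

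Further genes chosen after their values were seen kept their call without any single well. Ntn4, a netrin gene, stood at 106 and 73.2 CPM in C2C12-control cells and at 74.8 and 38.1 CPM in C2C12-Notch1 cells (-0.66, adjusted p 1.96e-05). The Wnt receptor gene Fzd5 was lower by a log2 difference of -0.94 (1.43e-05) and Calcrl, a receptor gene for vasodilator peptides, by -0.46 (8.07e-05). Higher were the transcription factor gene Ets2, at 0.60 (1.23e-07), and the chromatin gene Hmga2, at 0.40 (2.72e-05). Gpbar1, a bile acid receptor gene with few reads, held 22 and 4 reads in C2C12-control cells and 25 and 0 reads in C2C12-Notch1 cells (adjusted p 3.78e-07).

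The next 5 interferon genes were also chosen after their values were seen, and Rsad2 and Irf7 are among the 7 list members already counted, so they add no support. Their levels are for C2C12-control cells with HEK-Jag1WT and HEK-Jag1Ndr. Cmpk2 stood at 18.4 and 34.4 CPM (fitted difference 0.90, adjusted p 0.00203), Rsad2 at 33.1 and 48.9 CPM (0.55, 0.0337), Oas3 at 146 and 185 CPM (0.34, 0.0461), Irf7 at 204 and 259 CPM (0.35, 0.0148) and Irgm1 at 186 and 248 CPM (0.37, 0.00314). Irgm1 is expressed in C2C12-Notch1 cells too, at 45.2 and 53 CPM. All 5 calls were lost without the control/WT or the control/Ndr well, and Oas3 also without the Notch1/WT well (0.0643). In the first 2 fits the adjusted p of Irgm1 was 0.461 and 0.94, and the adjusted p of the other 4 lay between 0.767 and 1. The lowest values over all alternatives were 2.37e-05 for Cmpk2, 0.00331 for Rsad2, 0.00476 for Oas3, 0.00148 for Irf7 and 5.33e-05 for Irgm1, and the highest was 1.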
